A study of Homo sapiens with 12 samples.

Results

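Small GTPases of the Rab family and the proteins that switch Rac, Cdc42, Ras, Ral, Rab and Arf GTPases on and off are described here through the introns and exons whose splicing the deposited tables list as changed. Members were chosen by symbol alone: a row belongs here if a gene symbol starts with ARHGAP, ARHGEF, RALGAP, RAPGEF, RASA, RASGR, DOCK, TBC1D, DENND, AGAP, ARAP, ASAP, ARFGAP, ARFGEF, RABGAP, RABGEF or RAB and a digit, and is not ARHGAP29. This gave 42 of the 2365 rows, in 34 genes. They are 32 of 1549 intron features in MTAP-null cells, 4 of 258 intron features in MTAP-WT cells, and 6 of 459 splicing events in MTAP-null cells. None of the 99 events listed for MTAP-WT cells was a member. The 36 intron rows are 35 distinct introns, because an intron of RAB28 was listed in both genotypes.

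The cells were HCT116, a human colon cancer line, engineered to lack MTAP (MTAP-null) or with MTAP kept (MTAP-WT). There were 4 groups of 3 libraries: MTAP-null with AGI24512, MTAP-null with DMSO, MTAP-WT with AGI24512 and MTAP-WT with DMSO. AGI24512 inhibits MAT2A, the enzyme that makes the methyl donor S-adenosylmethionine, and DMSO is its solvent. MTAP recycles methylthioadenosine, a by-product that accumulates when the enzyme is missing. The labels state neither dose, nor time, nor whether the MTAP-null line is a single clone. Nor do they name separate cultures for the libraries within a group, so a p-value below measures only how far such libraries differ, which may be technical.

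A small GTPase is active while it holds GTP. Guanine nucleotide exchange factors (GEFs) load it with GTP, and GTPase-activating proteins (GAPs) make it cleave the GTP. Rac and Cdc42 act on the actin skeleton, Ras and Ral on growth signalling and exocytosis, and Rab and Arf on vesicle traffic, all of which shape epithelial cells. The features are named after detained introns, introns that remain in polyadenylated RNA held in the nucleus.

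The sequences printed here come from GENCODE 29 transcripts (GRCh38, 5′ to 3′ on the gene's strand). They show where the features lie, and no change below was derived from them. The whole RAB24 intron and both ends of the RALGAPA1 feature are shown because these stood in both the intron table and the event tables. The RAB24 intron is chr5:177302179-177302396 (minus strand), and the RALGAPA1 ends are chr14:35689776-35689835 and chr14:35688541-35688600 (minus strand). Capitals mark the first 2 bases, the last 2 bases or both.
RAB24 intron: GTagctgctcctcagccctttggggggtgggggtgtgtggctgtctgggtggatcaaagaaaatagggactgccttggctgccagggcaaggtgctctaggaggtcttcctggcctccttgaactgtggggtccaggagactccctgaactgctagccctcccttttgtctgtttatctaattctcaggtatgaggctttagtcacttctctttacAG
RALGAPA1 feature, 5′ end: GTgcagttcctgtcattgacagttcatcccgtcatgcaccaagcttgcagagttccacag
RALGAPA1 feature, 3′ end: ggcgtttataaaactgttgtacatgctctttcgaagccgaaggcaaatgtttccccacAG

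A coding exon of each of 2 genes is shown because it was listed as a skipped exon.
RAB4A exon 2: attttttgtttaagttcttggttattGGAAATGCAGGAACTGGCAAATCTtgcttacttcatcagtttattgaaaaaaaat
ARHGEF1 exon 27: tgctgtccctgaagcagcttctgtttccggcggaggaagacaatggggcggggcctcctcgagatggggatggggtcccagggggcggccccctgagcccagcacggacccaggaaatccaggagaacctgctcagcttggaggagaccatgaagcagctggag
RAB4A exon 2 is chr1:229286486-229286566 and ARHGEF1 exon 27 is chr19:41906457-41906620, both on the plus strand. Capitals in RAB4A exon 2 mark the codons of the phosphate-binding loop, the stretch by which a small GTPase grips the nucleotide.

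The spliced exon junctions across 4 introns are shown for these reasons: RAB17 held the most reads, RAB28 was listed in both genotypes, and ARFGEF2 and ARHGAP23 rose under both scalings described below. Capitals mark the last 3 bases of the exon before the intron and the first base of the exon after it.
RAB17 junction: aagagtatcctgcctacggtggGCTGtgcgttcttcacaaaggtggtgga
RAB28 junction: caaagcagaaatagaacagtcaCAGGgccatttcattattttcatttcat
ARFGEF2 junction: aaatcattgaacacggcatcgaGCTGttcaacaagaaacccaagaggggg
ARHGAP23 junction: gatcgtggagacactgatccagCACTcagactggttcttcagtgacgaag
With their flanking bases, these introns span chr2:237578131-237586022 (RAB17, minus strand), chr4:13371843-13376569 (RAB28, minus strand), chr20:48976175-48984753 (ARFGEF2, plus strand) and chr17:38491508-38497809 (ARHGAP23, plus strand).

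Read counts of an intron are given as normalised counts, the deposited raw count divided by the authors' size factor of the library. Summed raw counts over all listed introns lay between 113064 and 214530 per MTAP-null library and between 50919 and 65080 per MTAP-WT library. In MTAP-null cells, AGI24512 replicate 1 stood below the other AGI24512 libraries, with a median log2 deviation of -0.31 from the group mean over the member introns and -0.20 over all listed introns. Leaving it out left 27 member introns risen and 1 fallen, the same counts as with all libraries. The MTAP-null table lists a feature of MTAP itself, with 163, 223 and 254 normalised counts with AGI24512 against 87.4, 96.2 and 101 with DMSO. Which part of MTAP was removed is not given in the sources used here, so this feature does not check the genotype. Of 13 colon epithelial markers, KRT8 alone was listed, and 0 of 5 fibroblast and 0 of 4 leukocyte markers were. The tables list only features that passed, so this does not check the cell type.

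In MTAP-null cells, reads in introns of GTPase genes were mostly more numerous with AGI24512. Of the 32 member introns, 27 rose and 1 fell by edgeR's quasi-likelihood test on read counts (Benjamini-Hochberg adjusted over all 1549 introns, threshold 0.05), but under TMM scaling only 4 rose, 1 fell and 8 changed sign. Changes of sign were not counted over all listed introns. Over all listed introns, 77.6% rose and 4.65% fell, so the members' 84.4% and 3.12% lie near the background. The median log2 change of read counts was 1.16 over the members and 0.95 over all listed introns. TMM scaling, which centres the libraries on the listed introns themselves, shifted the median over all introns by -0.85 in MTAP-null and -0.57 in MTAP-WT cells. The listed introns all passed the authors' test, most with higher usage, so a scaling estimated from them is distorted toward equal rises and falls. A rise lost or a fall enlarged under TMM thus does not decide whether that intron changed. Under TMM, 251 introns rose and 253 fell in MTAP-null cells (16.2% and 16.3%), and the members' median was 0.32 against 0.11 over all. The introns that rose under both scalings were ARFGEF2, ARHGAP23, ARHGAP12 (feature E013) and RASA1 (feature E024). "Rose" and "fell" refer to the authors' size factors below, and the log2 change under TMM is given beside them. A read count mixes the amount of a gene's RNA with the share of it that keeps the intron, and reads from fewer cells or from less RNA per cell cannot be told apart.

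**Figure D1:**
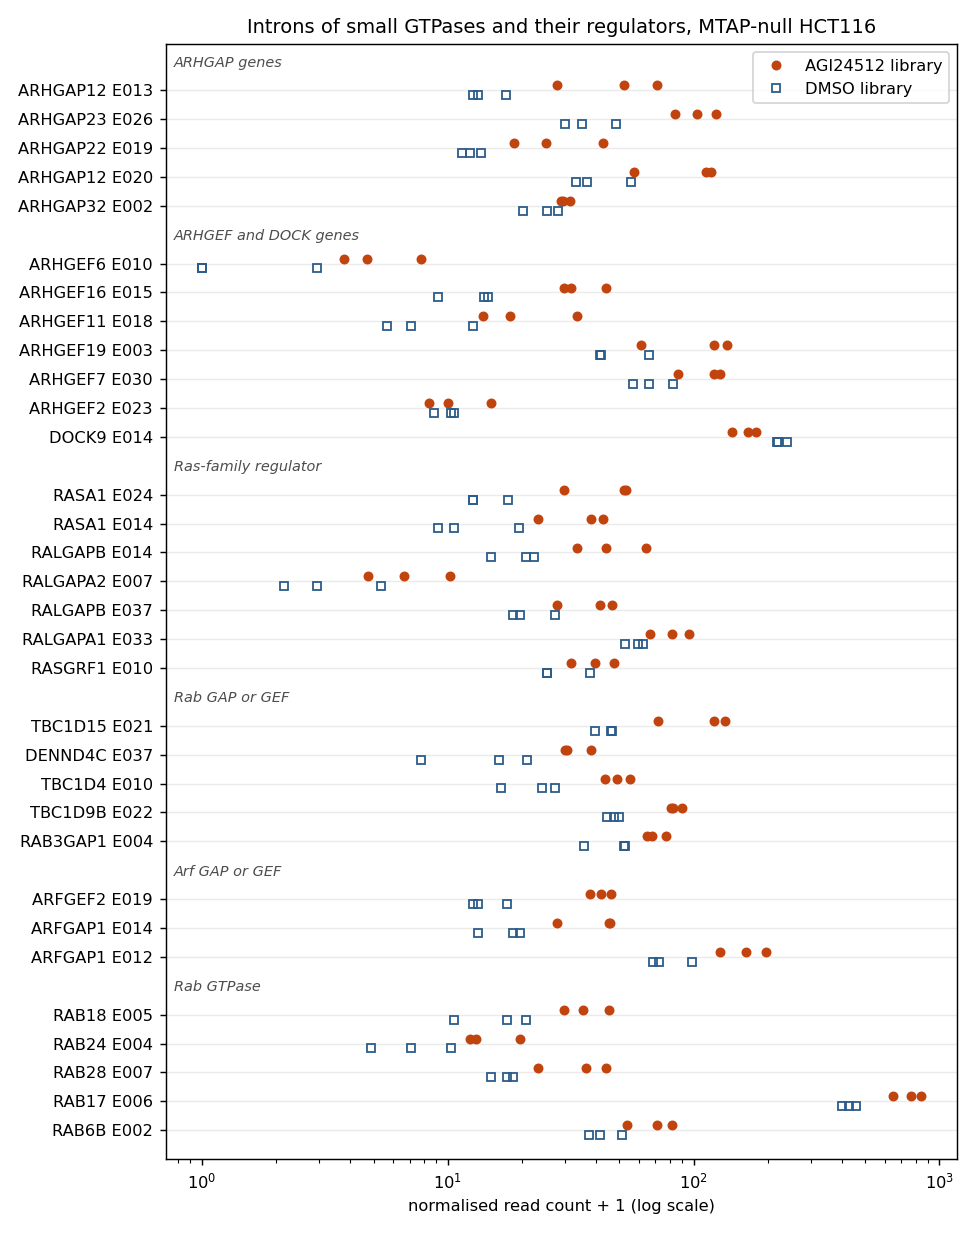
Normalised read count plus 1 (log scale) in each MTAP-null library, filled circles for AGI24512 and open squares for DMSO, for the 32 member introns grouped by role. Labels after a gene are the authors' feature numbers. In 27 introns all AGI24512 libraries lie above all DMSO libraries, and in DOCK9 they lie below.

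**Figure D2:**
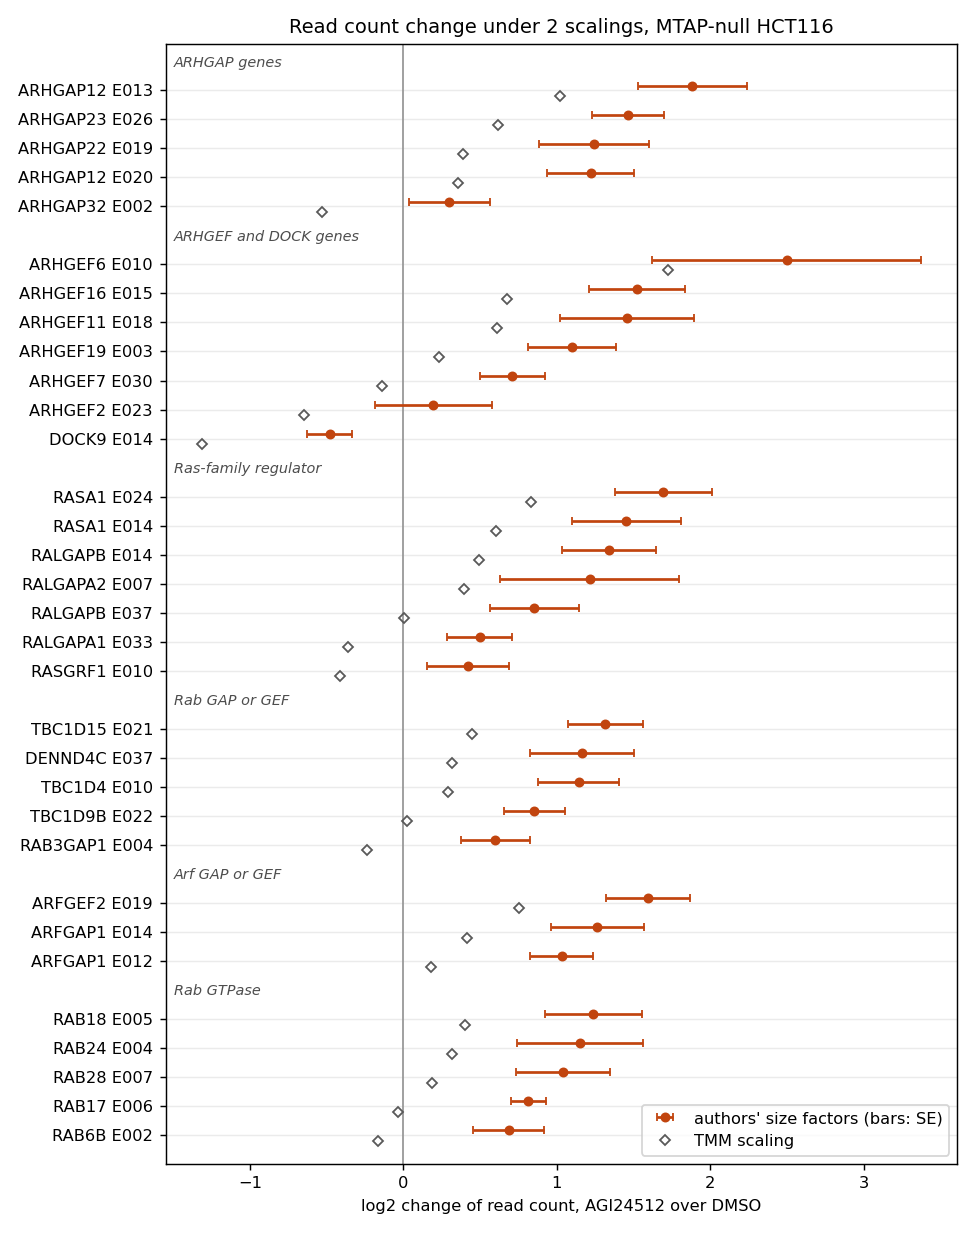
Log2 change of read count, AGI24512 over DMSO, of the same 32 introns with the authors' size factors (circles, bars are SE) and under TMM scaling (diamonds). Every diamond lies left of its circle, and 8 introns stand right of 0 with the authors' size factors but left of 0 under TMM.

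Among the 32, all AGI24512 libraries were above all DMSO libraries for 27, against 75.9% of all listed introns, and below for 1, against 5.16%. The authors' deposited table, whose adjusted p chose the rows, gave higher usage with AGI24512 for 31 of the 32 members and for 93.5% of all listed introns, and lower usage for 1 member and 6.46% of all. Usage is the authors' fitted score of a feature relative to its gene, taken here to be on a variance-stabilised scale. Its log2 change is then the log2 ratio of these scores, not of counts or of shares. In that table the members' median usage change was 0.67 on the log2 scale, against 0.56 over all.

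Rab GTPases mark membranes and recruit the machinery of vesicle traffic. All 5 of their listed introns in MTAP-null cells rose, beside 77.6% of all listed introns, although RAB17 and RAB6B were below 0 under TMM. In the authors' deposited table their usage was higher by 0.48 to 1.09 on the log2 scale. RAB17, an epithelial Rab of recycling and polarised transport, had 647, 768 and 844 normalised counts in intron 2 of 5 with AGI24512, against 402, 427 and 455 with DMSO. It averaged 753 ± 99.5 (SD, n = 3) with AGI24512 and 428 ± 26.6 (SD, n = 3) with DMSO, and the libraries did not overlap. RAB17 changed by 0.81 ± 0.11 on the log2 scale (SE; edgeR adjusted p = 7.27e-05) with the authors' size factors and -0.04 under TMM. RAB6B, a Golgi Rab known mainly from neurons, had 52.8, 70.3 and 81.1 normalised counts in its last intron with AGI24512, against 36.7, 40.8 and 50.1 with DMSO. The AGI24512 libraries were all higher, but narrowly. Its log2 change was 0.69 ± 0.23 (edgeR adjusted p = 0.0144), and -0.16 under TMM. The RAB6B call was lost without AGI24512 replicate 3 (edgeR adjusted p = 0.0708) and without DMSO replicate 1 (0.0672).

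RAB18, which acts at the endoplasmic reticulum and lipid droplets, had 28.7, 44.2 and 34.5 normalised counts in intron 3 of 7 with AGI24512, against 9.61, 16.5 and 19.8 with DMSO. The groups did not overlap, and the log2 change was 1.24 ± 0.31 (edgeR adjusted p = 0.00282) and 0.40 under TMM. RAB28, known for its part in cilia of photoreceptors, had 22.2, 43.1 and 35.4 normalised counts in intron 6 of 7 with AGI24512, against 17.5, 16.5 and 14 with DMSO. Its AGI24512 libraries spread widely and the lowest still lay above every DMSO library. RAB28 changed by 1.04 ± 0.31 in log2 terms (edgeR adjusted p = 0.00668) and 0.19 under TMM. RAB24, linked to autophagy, had 12, 11.3 and 18.6 normalised counts in its 218-base intron 5 of 7 with AGI24512, against 6.12, 3.89 and 9.31 with DMSO. These are few reads, and the groups did not overlap. RAB24 changed by 1.15 ± 0.41 in log2 terms (edgeR adjusted p = 0.0177) and 0.32 under TMM. The RAB24 call was lost without AGI24512 replicate 3 (edgeR adjusted p = 0.0934), without DMSO replicate 2 (0.0737) and with DESeq2 (0.0616). The feature overlaps MXD3 on the same strand and bears an MXD3 detained intron name, so its reads may belong to either gene.

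The GAPs and GEFs of Rab proteins had 5 introns in 5 genes, and RAB3GAP1 was below 0 under TMM scaling. All 5 introns rose, beside 77.6% of all listed introns. Usage in the authors' deposited table was higher for all 5, by 0.42 to 0.79 on the log2 scale, and for 93.5% of all listed introns. TBC1D15, a GAP for Rab7, had 70.4, 120 and 133 normalised counts in its intron with AGI24512, against 45.4, 38.9 and 45.4 with DMSO. The DMSO libraries were close together and all lower, and the log2 change was 1.32 ± 0.24 (edgeR adjusted p = 0.000463) and 0.45 under TMM. TBC1D4, the Rab GAP that restrains insulin-driven transport of the glucose carrier GLUT4, had 42.6, 47.6 and 54.0 normalised counts in intron 13 of 20 with AGI24512, against 26.2, 15.5 and 23.3 with DMSO. The log2 change was 1.14 ± 0.26 (edgeR adjusted p = 0.00159) and 0.29 under TMM.

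TBC1D9B, of the same GAP family, had 89.0, 81.6 and 80.1 normalised counts with AGI24512, against 43.7, 48.6 and 46.6 with DMSO. It had the narrowest spread of the class, with means of 83.6 ± 4.73 with AGI24512 and 46.3 ± 2.46 with DMSO (SD, n = 3 each). TBC1D9B changed by 0.85 ± 0.20 in log2 terms (edgeR adjusted p = 0.00165), but 0.02 under TMM. The TBC1D9B feature bears a detained intron name that joins it with C5orf45, and it matches no annotated intron exactly. No other annotated gene overlaps it. DENND4C, an exchange factor for Rab10, had 29.7, 37.4 and 28.9 normalised counts in intron 30 of 31 with AGI24512, against 20.1, 6.80 and 15.1 with DMSO. The groups did not overlap, and the log2 change was 1.16 ± 0.34 (edgeR adjusted p = 0.00614) and 0.32 under TMM. An antisense gene, AL391834.1, overlaps the DENND4C feature, and whether reads were counted by strand is not given in the sources used here. RAB3GAP1, a catalytic subunit of the Rab3 GAP that also activates RAB18, had 63.9, 66.9 and 76.4 normalised counts with AGI24512, against 35.0, 51.5 and 51.2 with DMSO. RAB3GAP1 changed by 0.60 ± 0.22 in log2 terms (edgeR adjusted p = 0.022) and -0.24 under TMM. The RAB3GAP1 call was lost without AGI24512 replicate 3 (edgeR adjusted p = 0.0745) and without DMSO replicate 1 (0.117).

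Arf regulators, which control coat formation on Golgi and endosomal membranes, had 3 introns in 2 genes. All 3 introns rose, beside 77.6% of all listed introns, and none of the 3 changed sign under TMM. In the authors' deposited table their usage was higher by 0.39 to 0.77 on the log2 scale. ARFGEF2, a Golgi exchange factor for Arf1 also called BIG2, had 37.1, 45.4 and 41.0 normalised counts in intron 14 of 38 with AGI24512, against 12.2, 16.5 and 11.6 with DMSO. Every AGI24512 library held more than every DMSO library, with means of 41.1 ± 4.14 with AGI24512 and 13.5 ± 2.66 with DMSO (SD, n = 3 each). Its log2 change was 1.59 ± 0.28 (edgeR adjusted p = 0.00029), and 0.75 under TMM (adjusted p = 0.0348). ARFGAP1, a Golgi Arf1 GAP, had 127, 162 and 196 normalised counts in intron 9 of 13 with AGI24512, against 71.6, 97.1 and 67.5 with DMSO. A second ARFGAP1 feature, just downstream and 234 bases long, had 26.9, 44.2 and 44.7 normalised counts with AGI24512, against 12.2, 17.5 and 18.6 with DMSO. Neither overlapped between groups. The log2 changes were 1.03 ± 0.21 for intron 9 (edgeR adjusted p = 0.00069, 0.18 under TMM) and 1.26 ± 0.30 for the downstream feature (0.00201, 0.42 under TMM). Both carry the name of 1 detained intron, so they are not independent.

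The ARHGAP genes, whose products switch off Rac, Cdc42 and their relatives, had 5 introns in 4 genes. Of these 4 rose, beside 77.6% of all listed introns, and ARHGAP32 did not pass and was below 0 under TMM scaling. In the authors' deposited table their usage was higher by 0.47 to 0.99 on the log2 scale. ARHGAP12 had 26.9, 51.0 and 69.9 normalised counts in intron 9 of 19 with AGI24512, against 12.2, 11.7 and 16.3 with DMSO. The AGI24512 libraries were spread but all higher, and the log2 change of 1.88 ± 0.35 (edgeR adjusted p = 0.000483) stayed at 1.02 under TMM (adjusted p = 0.00299). Intron 3 of the same gene, 46513 bases long, had 56.5, 111 and 116 normalised counts with AGI24512, against 32.3, 35.9 and 54.7 with DMSO. There the lowest AGI24512 library lay just above the highest DMSO library, and the log2 change was 1.22 ± 0.28 (edgeR adjusted p = 0.00174) and 0.36 under TMM.

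ARHGAP23 had 83.4, 122 and 103 normalised counts in intron 20 of 23 with AGI24512, against 34.1, 47.6 and 29.1 with DMSO. The groups were well apart, with means of 103 ± 19.5 with AGI24512 and 36.9 ± 9.58 with DMSO (SD, n = 3 each). The log2 change was 1.46 ± 0.24 (edgeR adjusted p = 0.000181), and 0.61 under TMM (adjusted p = 0.0152). The feature of ARHGAP22, a Rac GAP, had 17.6, 42.0 and 24.2 normalised counts with AGI24512, against 11.4, 12.6 and 10.5 with DMSO. Its log2 change was 1.24 ± 0.36 (edgeR adjusted p = 0.00593) and 0.39 under TMM, and the feature bears a second gene symbol, so its reads may not be those of ARHGAP22. ARHGAP32, a GAP best known from neurons, had 30.6, 28.3 and 28.0 normalised counts in its last intron with AGI24512, against 19.2, 27.2 and 24.4 with DMSO. The libraries did not overlap, but the log2 change of 0.30 ± 0.26 did not pass (edgeR adjusted p = 0.287) and was -0.53 under TMM.

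The ARHGEF and DOCK genes, exchange factors for the same branch of GTPases, had 7 introns in 7 genes. Of these 5 rose, 1 fell and 1 did not pass, beside 77.6% risen and 4.65% fallen among all listed introns. ARHGEF7 and ARHGEF2 changed sign under TMM. DOCK9, an exchange factor for Cdc42, was the one member intron that fell and the one with lower usage (log2 -0.39 in the authors' deposited table). It had 178, 142 and 165 normalised counts in intron 46 of 56 with AGI24512, against 239, 218 and 220 with DMSO. All AGI24512 libraries were lower, with means of 162 ± 18.3 with AGI24512 and 226 ± 12 with DMSO (SD, n = 3 each). The log2 change was -0.48 ± 0.15 (edgeR adjusted p = 0.00876), and -1.31 under TMM (adjusted p = 1.75e-11). Without AGI24512 replicate 2 the DOCK9 call was lost (log2 -0.40, edgeR adjusted p = 0.0508).

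ARHGEF19, an exchange factor, had 60.2, 120 and 136 normalised counts in intron 14 of 15 with AGI24512, against 41.1, 65.1 and 40.7 with DMSO. The groups overlapped, since the lowest AGI24512 library lay below the highest DMSO library, and the log2 change was 1.1 ± 0.29 (edgeR adjusted p = 0.00329) and 0.23 under TMM. ARHGEF16 had 28.7, 30.6 and 42.9 normalised counts in its 397-base intron 11 of 14 with AGI24512, against 13.1, 13.6 and 8.15 with DMSO. The groups were apart. ARHGEF16 changed by 1.52 ± 0.31 in log2 terms (edgeR adjusted p = 0.000801) and by 0.68 under TMM. ARHGEF7, or beta-PIX, which activates Rac and Cdc42 at focal adhesions, had 85.3, 120 and 127 normalised counts in intron 14 of 19 with AGI24512, against 55.9, 81.6 and 65.2 with DMSO. Its log2 change was 0.71 ± 0.21 (edgeR adjusted p = 0.00763), but -0.14 under TMM. ARHGEF11, an exchange factor downstream of G-protein-coupled receptors, had 13, 17.0 and 32.6 normalised counts in intron 29 of 40 with AGI24512, against 6.12, 11.7 and 4.66 with DMSO. Its log2 change of 1.46 ± 0.44 (edgeR adjusted p = 0.00721, 0.61 under TMM) was 0.96 and not called without AGI24512 replicate 3 (adjusted p = 0.0608).

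ARHGEF6, or alpha-PIX, the close relative of ARHGEF7, had very few reads. Its feature held 4, 6 and 3 raw reads with AGI24512 and 0, 2 and 0 with DMSO. The ratio of the summed reads, corrected for size factors, was 6.50 with a 95% exact interval of 1.47 to 59.3 that covers counting error only. ARHGEF6 passed edgeR (adjusted p = 0.0171) but not DESeq2 (0.0601) or TMM scaling (log2 change 1.73, adjusted p = 0.122). It was also lost without AGI24512 replicate 2 (edgeR adjusted p = 0.0937), DMSO replicate 1 (0.0685) or DMSO replicate 3 (0.051), and its fitted log2 change was 5.16 without DMSO replicate 2, against 2.50 with all libraries. ARHGEF2, also called GEF-H1, an exchange factor tied to microtubules, had 7.41, 9.07 and 14 normalised counts in intron 4 of 21 with AGI24512, against 9.61, 7.77 and 9.31 with DMSO. The groups overlapped. The log2 change of 0.19 ± 0.38 did not pass (edgeR adjusted p = 0.633), and it was -0.64 under TMM and -0.12 without AGI24512 replicate 3.

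Regulators of Ras and Ral had 7 introns in 5 genes, and RALGAPA1 and RASGRF1 changed sign under TMM. Of the 7 introns 5 rose, beside 77.6% of all listed introns, and 2 did not pass. In the authors' deposited table their usage was higher by 0.41 to 1.09 on the log2 scale. RASA1, the GAP that switches off Ras at activated receptors, had a feature in intron 12 of 25 of a transcript annotated as nonsense-mediated decay. In that transcript the intron lies after the coding part. The feature had 22.2, 42.0 and 37.3 normalised counts with AGI24512, against 9.61, 18.5 and 8.15 with DMSO. A RASA1 feature further downstream had 28.7, 52.2 and 51.3 normalised counts with AGI24512, against 16.6, 11.7 and 11.6 with DMSO. The groups did not overlap in either. The log2 changes were 1.45 ± 0.35 for intron 12 (edgeR adjusted p = 0.0023, 0.60 under TMM) and 1.69 ± 0.31 for the downstream feature (0.000455, and 0.84 with adjusted p = 0.0174 under TMM). CCNH lies antisense to both RASA1 features, so their reads may include it.

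RALGAPA1 and RALGAPA2 are catalytic subunits of the GAP for Ral, and RALGAPB is the partner that either needs. RALGAPB had 32.4, 43.1 and 63.4 normalised counts in intron 10 of 29 with AGI24512, against 14, 21.4 and 19.8 with DMSO. In intron 28 of 29 it had 26.9, 40.8 and 45.7 normalised counts with AGI24512, against 17.5, 26.2 and 18.6 with DMSO. In intron 28 the groups almost touched. The log2 change was 1.34 ± 0.30 for intron 10 (edgeR adjusted p = 0.0015, 0.49 under TMM) and 0.85 ± 0.29 for intron 28 (0.0142, 0.01 under TMM). Intron 28 was not called without AGI24512 replicate 3 (edgeR adjusted p = 0.0633) or DMSO replicate 1 (0.0643). RALGAPA1 had 65.8, 80.5 and 95.1 normalised counts in the feature whose ends are printed above with AGI24512, against 61.2, 51.5 and 58.2 with DMSO. The groups did not overlap but lay close, and the log2 change of 0.50 ± 0.21 (edgeR adjusted p = 0.038) was -0.36 under TMM. Among the fits that leave out 1 library, the RALGAPA1 call held only without AGI24512 replicate 1. It was lost without AGI24512 replicate 2 (edgeR adjusted p = 0.0846), AGI24512 replicate 3 (0.179), DMSO replicate 1 (0.0627), DMSO replicate 2 (0.121) or DMSO replicate 3 (0.0776), and also with DESeq2 (0.0718).

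RALGAPA2 had 9.27, 5.67 and 3.73 normalised counts in its 60680-base intron with AGI24512, against 4.37, 1.94 and 1.16 with DMSO. The groups overlapped and the log2 change of 1.21 ± 0.58 did not pass (edgeR adjusted p = 0.0642, 0.39 under TMM). It passed without AGI24512 replicate 3 (edgeR adjusted p = 0.0383) or DMSO replicate 1 (0.0312). RASGRF1, a Ras exchange factor driven by calcium in neurons, had 38.9, 46.5 and 30.8 normalised counts in intron 23 of 26 with AGI24512, against 24.5, 36.9 and 24.4 with DMSO. Its groups overlapped and its log2 change of 0.42 ± 0.27 did not pass (edgeR adjusted p = 0.15), with -0.41 under TMM. AC011944.1 lies antisense to the RASGRF1 feature.

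In MTAP-WT cells, 4 member introns were listed and all 4 rose, against 70.5% risen and 14.3% fallen among the 258 listed introns (edgeR, adjusted over these 258), and under TMM scaling ASAP1 and AGAP6 passed while DENND4A and RAB28 did not. All AGI24512 libraries lay above all DMSO libraries in each of the 4, as they did in 69.4% of all listed introns. Usage was higher with AGI24512 for all 4 members and for 79.1% of all listed introns in the authors' deposited table. DENND4A, an exchange factor for Rab10, had 48.2, 38.9 and 43.0 normalised counts in intron 22 of 31 with AGI24512, against 24.8, 17.7 and 18.7 with DMSO. Its log2 change was 1.08 ± 0.25 (edgeR adjusted p = 7.43e-05), and 0.50 under TMM (adjusted p = 0.0763). ASAP1, an Arf GAP of focal adhesions, had 16.7, 13 and 18.9 normalised counts in intron 16 of 29 with AGI24512, against 3.67, 7.27 and 6.25 with DMSO. Its log2 change was 1.5 ± 0.41 (edgeR adjusted p = 0.0007), and 0.93 under TMM (adjusted p = 0.0473).

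AGAP6, one of several nearly identical Arf GAP genes, had 9, 4 and 6 raw reads in intron 6 of 7 with AGI24512 and 0, 0 and 1 with DMSO. The ratio of the summed reads, corrected for size factors, was 18.9 with a 95% exact interval of 3.0 to 784, which covers counting error only. AGAP6 passed edgeR (adjusted p = 0.000223), also under TMM scaling (log2 change 3.32, adjusted p = 0.00312), and its fitted log2 change was 5.70 without DMSO replicate 3, the library with its 1 read, against 3.81 with all libraries. The feature also bears the symbol LINC00843, and reads from duplicated copies cannot be assigned with certainty.

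RAB28 was the member listed in both genotypes, with the same intron, chr4:13371868-13376544. In MTAP-WT cells it had 28.8, 21.9 and 38.8 normalised counts with AGI24512, against 11.9, 17.7 and 8.33 with DMSO. The groups did not overlap, as in MTAP-null cells, and the log2 change was 1.23 ± 0.30 (edgeR adjusted p = 0.000173) and 0.65 under TMM (adjusted p = 0.0666). The usage change in the authors' deposited table was 0.75 in MTAP-null and 0.79 in MTAP-WT cells on the log2 scale. The drug-by-genotype term of RAB28, fitted with edgeR over the 92 introns listed in both genotypes and all 12 libraries, was -0.19 ± 0.45 (SE) on the log2 scale, MTAP-null minus MTAP-WT (adjusted p = 0.864). Of those 92 introns, 9.78% had a term above 0 and 8.7% a term below 0 that passed. For RAB28 the count was 0 with edgeR, with 0 at an unadjusted p under 0.05, and 0 with DESeq2. The RAB28 term was 0.04 without MTAP-null AGI24512 replicate 1, 0.03 without MTAP-WT AGI24512 replicate 3 and 0.02 without MTAP-WT DMSO replicate 3. For the other 34 member introns the genotypes were not compared, since each was listed in 1 genotype only and a missing row is not shown to be unchanged.

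**Figure D3:**
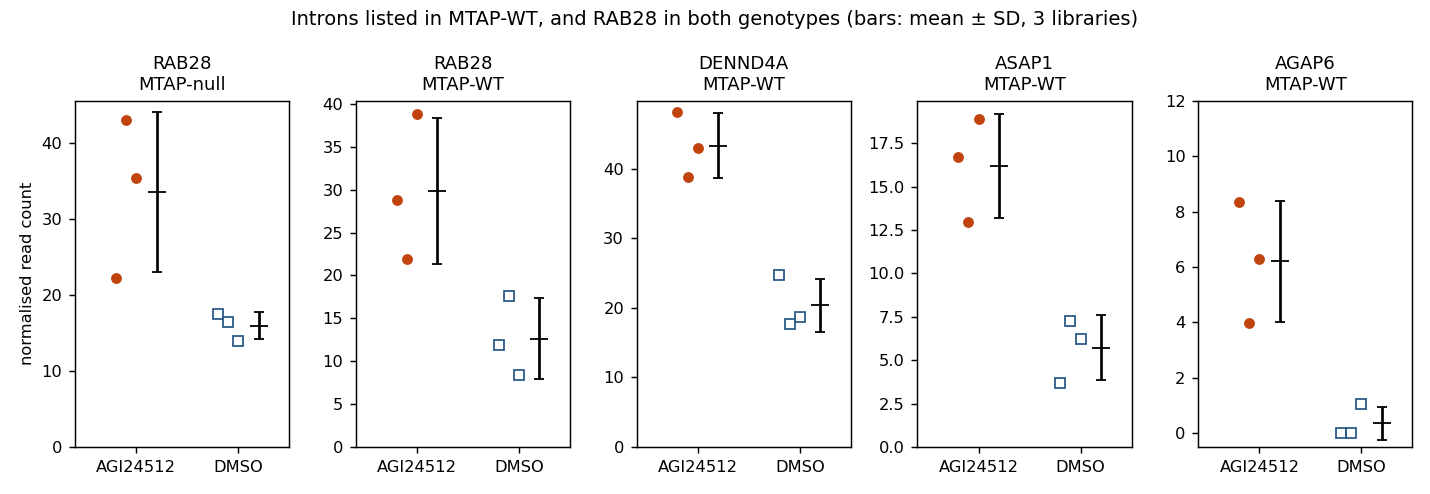
Normalised read count in each library of the RAB28 intron in MTAP-null and MTAP-WT cells and of the DENND4A, ASAP1 and AGAP6 introns in MTAP-WT cells, with AGI24512 left and DMSO right and bars for mean ± SD of 3 libraries. The AGI24512 libraries lie above the DMSO libraries in every panel, and AGAP6 has 1 DMSO library above 0.

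The event tables, made with rMATS, compare a set 1 and a set 2 of 3 libraries each without stating which treatment is which, so the 6 member events are given by set. They lie in 5 genes, all in MTAP-null cells: 1 retained intron, 1 alternative 5′ splice site and 4 skipped exons. The inclusion level is the share of transcripts that keep the segment. For RAB24 the authors' deposited table gave the intron printed above inclusion levels of 0.151, 0.246 and 0.301 in set 1 and 0.046, 0.014 and 0.059 in set 2 (difference 0.193, FDR 0.000528). The sets did not overlap. RAB24 reads that skip the intron numbered 22, 12 and 21 in set 1 and 63, 63 and 62 in set 2, and reads that include it 13, 13 and 30 in set 1 and 10, 3 and 13 in set 2, per the authors' deposited table. For RALGAPA1 that table gave a longer exon form, using a 5′ splice site 1377 bases further on, levels of 0.303, 0.274 and 0.471 in set 1 and 0.118, 0.151 and 0.153 in set 2 (difference 0.209, FDR 0.033). That segment, chr14:35688459-35689835, contains the whole RALGAPA1 intron feature, so both tables point to the same stretch of RNA. The RALGAPA1 feature held 71, 71 and 102 raw reads with AGI24512 and 70, 53 and 50 with DMSO. Reads that include the segment numbered 136, 130 and 195 in set 1 and 122, 95 and 96 in set 2. The RAB24 feature held 13, 10 and 20 raw reads with AGI24512 and 7, 4 and 8 with DMSO. In library order, the inclusion reads of both genes run with these counts if set 1 is AGI24512 and set 2 is DMSO. The headers do not state this, so events stay named by set.

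RAB4A, which returns cargo from early endosomes to the surface, had 2 skipped exons, the neighbouring exons 2 and 3 of 8, of which exon 2 is printed above. The authors' deposited table gave RAB4A exon 2 inclusion levels of 0.614, 0.628 and 0.795 in set 1 and 0.914, 0.912 and 0.897 in set 2 (difference -0.229, FDR 0.000753). For RAB4A exon 3 that table gave 0.776, 0.705 and 0.861 in set 1 and 0.942, 0.936 and 0.908 in set 2 (difference -0.148, FDR 0.0275). Neither exon overlapped between sets. Both RAB4A events list the same skipping reads, 49, 43 and 23 in set 1 and 13, 12 and 14 in set 2, so they rest on shared reads. Exon 2 is 81 bases, a multiple of 3, and exon 3 is 115 bases, which is not, per the event coordinates in the authors' deposited table. Shared skipping reads may leave out both exons together, so the length of exon 2 alone does not show that skipping keeps the reading frame.

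ARHGEF1, an exchange factor downstream of G-protein-coupled receptors, had exon 27 of 29 included at 0.579, 0.495 and 0.529 in set 1 and 0.701, 0.666 and 0.726 in set 2 (difference -0.163, FDR 0.0217 in the authors' deposited table). The sets were apart, and each library held at least 471 reads that include or skip the exon. Its 164 bases are not a multiple of 3. DENND2C, a Rab exchange factor of the DENN family, had a 112-base exon in or next to the untranslated region at 0.186, 0 and 0 in set 1 and 0.174, 0.313 and 0.646 in set 2 (difference -0.316, FDR 0.0232 in the authors' deposited table). Its set 1 libraries held 3, 1 and 2 reads and the sets overlapped, so the level of DENND2C is poorly fixed at this depth.

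**Figure D4:**
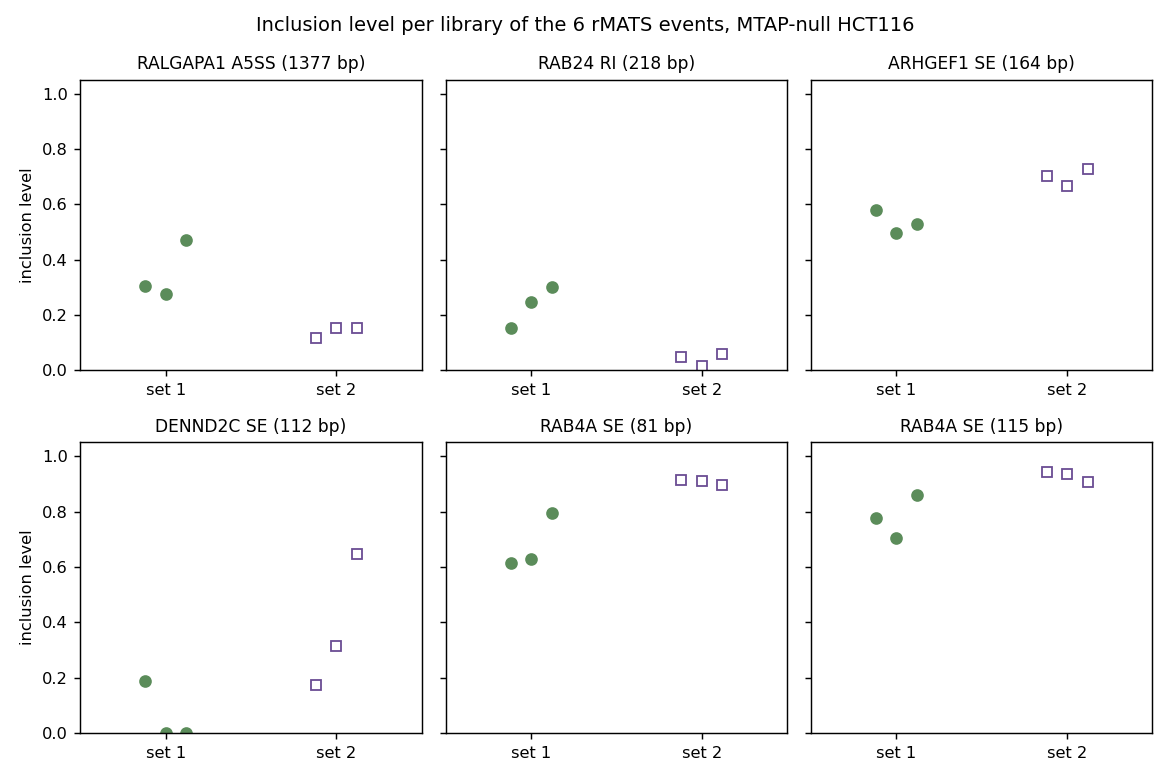
Inclusion level in each library of set 1 (left, circles) and set 2 (right, squares) for the 6 rMATS events of member genes in MTAP-null cells, from the authors' deposited table; A5SS is an alternative 5′ splice site, RI a retained intron and SE a skipped exon. Set 1 is above set 2 for RALGAPA1 and RAB24 and below it for ARHGEF1 and both RAB4A exons, while DENND2C overlaps.

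The usage change and the read count change are different measures, taken here to be on different scales, so their sizes cannot be compared directly. In the authors' deposited table ARHGEF2 had a usage change of 0.77 and ARHGAP32 one of 0.54 on the log2 scale, while their read counts did not pass in edgeR. Spearman's rank correlation between the 2 log2 changes was 0.63 over the 32 MTAP-null members and 0.80 over all 1549 introns, a description across features that share libraries and reads.

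**Figure D5:**
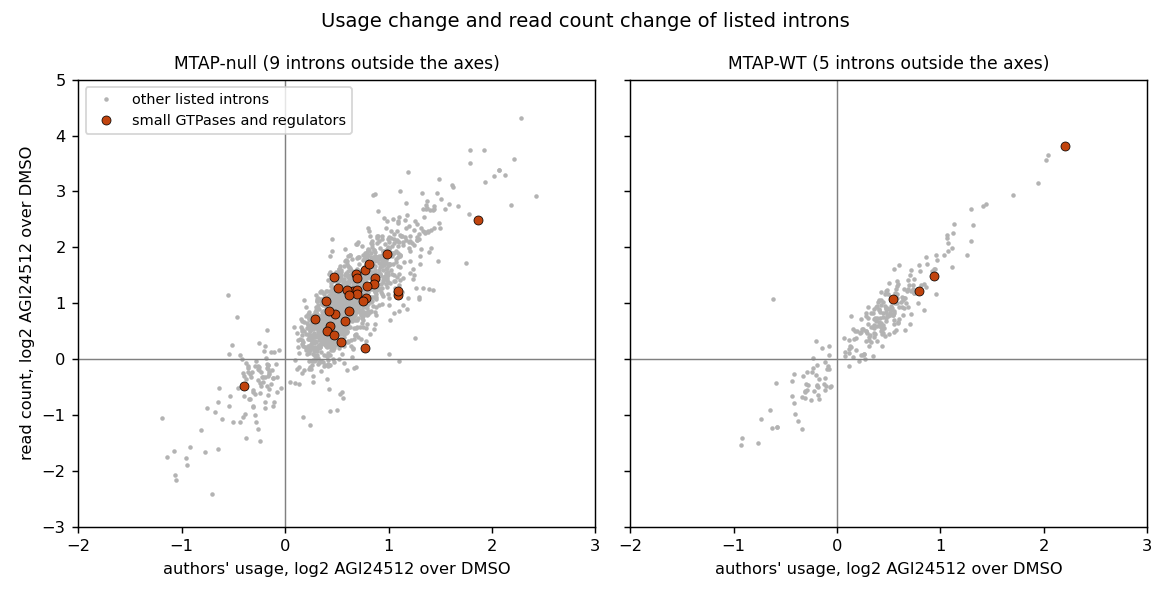
Listed introns by their usage change (x axis, authors' values, log2) and their read count change (y axis, log2 with the authors' size factors), AGI24512 over DMSO, with members as large circles, MTAP-null left and MTAP-WT right; 9 MTAP-null and 5 MTAP-WT introns lie outside the axes. In MTAP-null cells 31 members lie right of 0 and DOCK9 lies at lower left, and all 4 MTAP-WT members lie at upper right.

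Other properties of the member features are set beside those of the whole lists. In MTAP-null cells, 27 of 32 matched an annotated intron exactly (84.4%), against 68.9% of all 1549. The median length was 3191 bases for members and 2097 bases over all, with members between 218 bases (RAB24) and 60680 bases (RALGAPA2). The median of the authors' base means was 30.3 for members and 44.1 over all listed introns, so the median member held fewer reads. Of the 27 matched introns, 7 were the last or next to last of their transcript (25.9%), against 32.0% of all matched introns. A name from the detained introns of Braun was borne by 13 of 32 members (40.6%) and 28.1% of all features. No test was made of these differences. The features of RAB24, ARHGEF16, RALGAPA1 and ARHGAP32 also lie inside an exon of an annotated transcript.

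A list of 282 other genes of the same pathways, GTPases and effectors that the symbol rule does not take, had 46 introns in MTAP-null cells. Of these 29 rose, 3 fell and 14 did not pass in edgeR, against 77.6% risen and 4.65% fallen among all listed introns. Their median log2 change was 0.84, beside 1.16 over the members and 0.95 over all listed introns. Under TMM 9 rose and 10 fell, against 16.2% and 16.3% of all listed introns. RCC1, the exchange factor of Ran, had 1853 normalised counts on average with AGI24512 and 454 with DMSO (log2 change 2.03, edgeR adjusted p = 1.13e-09, and 1.18 under TMM), in a feature shared with SNHG3. The 3 that fell were 2 introns of SBF2, a Rab exchange factor (log2 -1.12 and -1.04), and 1 of NF1, the Ras GAP neurofibromin (log2 -1.57), and all 3 fell further under TMM. In MTAP-WT cells 6 introns of this list were present, of which 3 rose, 2 fell and 1 did not pass. Among all listed introns there, 70.5% rose and 14.3% fell. Under TMM 1 of the 6 rose and 2 fell, against 23.3% and 26.4% of all listed introns. The fallen ones were the same SBF2 introns (log2 -1.21 and -1.21). The event tables held 8 events of listed genes in MTAP-null cells and 1 in MTAP-WT cells.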

How the data were processed

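Poly-A enriched RNA was sequenced as paired ends, per the labels' protocols. No source used here states aligner, versions or build. Coordinates match GENCODE 29 (GRCh38), from which all annotation and sequences were taken.

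The intron tables come from DEXSeq, per the file headers. Their deposited raw counts per feature and library are whole and carry no normalization. The deposited base mean is a signal, the mean of counts over size factors, and it returned the size factors. The deposited usage per treatment is a fitted score, taken here to be on the variance-stabilised scale of DEXSeq, which its column names do not state. The authors' log2 fold is DMSO over AGI24512 and its sign was turned here. The authors' adjusted p-values all lie below 0.05. The event tables come from rMATS, per the file headers, with deposited inclusion levels and their difference as a score. Read counts whose separators were lost in 7 library cells of member events were recovered where 1 split alone gave the deposited inclusion level (tolerance 0.0006).

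Counts were tested with edgeR 4.0.16 (quasi-likelihood, R 4.3.3) over each whole table, treatment as the one term, with Benjamini-Hochberg adjustment. The steps were tested on simulated data. Alternatives were TMM scaling, DESeq2 1.42.0, a mean count of at least 20, the replicate number as a block, each library left out, and smaller sets of features. All columns of per-library values were mapped. Each member intron is described. The rule for naming took the 4 lowest adjusted p-values per role, the 5 largest changes, all MTAP-WT, fallen or repeated members, and all events. Members and lists were chosen with earlier results of these data known, and the features were listed because they passed on these very libraries. A count of calls is thus a description. Some values and sequences are not reported here.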

Additional observations from a re-analysis of the deposited data

How the results depend on the processing

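TMM scaling was estimated from the listed introns alone, so its counts are distorted toward equal rises and falls. Under TMM, 4 member introns rose in MTAP-null and 2 in MTAP-WT cells. Over all listed introns 251 rose and 253 fell in MTAP-null cells under TMM. In MTAP-WT cells 60 rose and 68 fell, against 182 and 37 with the authors' size factors. TMM reversed ARHGAP32 (-0.53), ARHGEF7 (-0.14), RALGAPA1 (-0.36), RASGRF1 (-0.41), ARHGEF2 (-0.64), RAB3GAP1 (-0.24), RAB17 (-0.036) and RAB6B (-0.16). With the authors' adjusted p below 0.01, 17 of 20 member introns rose in MTAP-null cells beside 753 of 918 over all, 19 members had higher usage, and 85 of 127 introns rose over all in MTAP-WT cells. With a mean count of at least 20, 2 MTAP-WT members were tested and both rose, beside 122 of 192 over all. At an FDR below 0.01, 2 events were left. These smaller numbers follow in part from fewer features.

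Leaving out 1 library at a time gave 22 to 27 members risen and 0 to 1 fallen in MTAP-null cells, 1005 to 1281 risen and 62 to 71 fallen over all, and in MTAP-WT cells 4 members risen, with 169 to 180 risen and 34 to 39 fallen over all. Of 28 MTAP-null member calls, 20 held without each library, as did all 4 in MTAP-WT cells. Calls that held were not counted over all listed introns, so members cannot be set beside the whole list here. ARHGEF2 ranged between -0.12 and 0.39 and the RAB28 drug-by-genotype term between -0.49 and 0.040, so both reversed. The cause was not tested. DESeq2 lost 3 member calls (RAB24, RALGAPA1 and ARHGEF6). Over all listed introns in MTAP-null cells, 1063 rose and 60 fell with DESeq2, against 1202 and 72 with edgeR.

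Replicate numbers did not visibly pair the libraries. Log2 deviations from the mean of the library's own treatment group were correlated between same-numbered AGI24512 and DMSO libraries. The correlations were 0.07, 0.04 and 0.01 in MTAP-null and -0.12, -0.02 and 0.06 in MTAP-WT cells. With the replicate block, 27 members rose and 1 fell in MTAP-null cells and 4 rose in MTAP-WT cells, and over all listed introns 1215 rose and 72 fell in MTAP-null and 178 rose and 37 fell in MTAP-WT cells.

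Depth limits RAB24, ARHGEF6, ARHGEF2, RALGAPA2, AGAP6 and DENND2C most, each with few reads per library. Every feature was listed because it passed on these libraries, so unchanged introns were not seen.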
